A study of Mus musculus with 6 samples.

Results

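The genes described here are 10 megakaryocyte and platelet genes, Selp, Itga2b, Itgb3, Plek, Vwf, Pf4, Gp9, Gp1bb, Treml1 and Rab27b, out of 12008 genes with enough reads to test. They were chosen by symbol, with their levels in these libraries already known, as genes of platelet-biased stem cell priming. All 10 were found in the table. The RNA is that of LT-HSC, the long-term stem cells of the blood, taken from C57BL/6 marrow depleted of lineage-positive cells and sorted as LSK cells with CD150 and without CD34, CD48 or Flk2. There were 3 libraries of Itpkb-/- mice, whose allele the labels call ENU-induced Ms T-less, and 3 of wild-type litter mate controls. The labels spell the mutant genotype IPTKB-/-. Each library pooled marrow of 4 age-matched mice. An ENU allele is carried by all cells of the mouse, so effects within LT-HSC and effects of other cells cannot be told apart. Itpkb, the mutated gene, was at 10.2, 13.99 and 18.2 normalized CPM in Itpkb-/- cells, against 22.1, 23.6 and 25.1 in wild-type cells. Its libraries were separate, with the Itpkb-/- libraries lower and a log2 difference of -0.73 (limma, adjusted p = 0.172, and 0.0541 with same-numbered libraries as a block). Normalized CPM are the authors' counts per gene, scaled by library, and 1 read was worth 0.13 to 0.25 of them.

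Megakaryocytes are the marrow cells that shed platelets. Platelets carry a fibrinogen receptor made of the integrin chains encoded by Itga2b (CD41) and Itgb3 (CD61), and a receptor for von Willebrand factor, the GPIb-IX-V complex, to which Gp1bb and Gp9 contribute. Their alpha granules store von Willebrand factor (Vwf), platelet factor 4 (Pf4), P-selectin (Selp) and the receptor TLT-1 (Treml1). Pleckstrin (Plek) is a major substrate of protein kinase C in platelets, and Rab27b is a small GTPase of granule formation and release. In mouse marrow, part of the LT-HSC express such genes at low level, and HSC that express a Vwf reporter are biased towards making platelets. Itpkb encodes a kinase that phosphorylates inositol trisphosphate, the messenger that releases calcium from stores.

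Of the 10 genes, 5, namely Itga2b, Itgb3, Gp1bb, Selp and Plek, were higher in every Itpkb-/- library than in every wild-type library, by a factor between 1.44 and 3.80 of the means. For the other 5, Vwf, Pf4, Gp9, Treml1 and Rab27b, the libraries of the genotypes overlapped. Because the members were chosen on these values, the differences are given as a description with standard errors and no p-value. All knockout libraries lay above all wild-type libraries in 10% (1204) of the 12008 genes tested, which is the background to the count of 5 among 10, and below them in 11.3%, with no overlap in either direction in 21.3%. No member lay below in all libraries. The log2 difference was positive for 8 members and negative for 2, with a median of 0.45, against 0.0018 over all genes tested. All 10 members passed the filter on low values (at least 1 normalized CPM in at least 3 libraries) in both genotypes, with 51 to 6284 reads per library. In bulk RNA, more cells with a transcript and more transcript per cell cannot be told apart.

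The upstream sequences of 4 members are shown because they held a match to AGGAAG, a form of the site of ETS factors, the family that includes the megakaryocyte factor Fli1. The windows cover 250 bases before the annotated start, from RefSeq (GRCm38.p6, which is mm10), written 5′ to 3′ in the sense of the gene, with AGGAAG or its reverse complement in capitals. Windows were found for 7 of the 10 members (Selp, Itga2b, Plek, Pf4, Gp9, Gp1bb and Treml1).
Itga2b, chr11:102469884-102470133, minus strand: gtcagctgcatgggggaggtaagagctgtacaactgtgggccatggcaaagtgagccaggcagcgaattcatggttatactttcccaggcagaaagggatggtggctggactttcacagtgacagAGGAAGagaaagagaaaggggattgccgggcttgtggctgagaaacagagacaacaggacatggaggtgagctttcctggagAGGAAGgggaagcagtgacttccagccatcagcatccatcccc
Selp, chr1:164115014-164115263, plus strand: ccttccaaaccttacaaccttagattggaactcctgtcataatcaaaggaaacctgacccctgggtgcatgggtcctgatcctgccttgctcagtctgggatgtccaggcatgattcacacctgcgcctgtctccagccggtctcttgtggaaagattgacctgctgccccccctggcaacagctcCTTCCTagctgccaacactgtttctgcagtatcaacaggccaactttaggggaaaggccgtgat
Pf4, chr5:90772185-90772434, plus strand: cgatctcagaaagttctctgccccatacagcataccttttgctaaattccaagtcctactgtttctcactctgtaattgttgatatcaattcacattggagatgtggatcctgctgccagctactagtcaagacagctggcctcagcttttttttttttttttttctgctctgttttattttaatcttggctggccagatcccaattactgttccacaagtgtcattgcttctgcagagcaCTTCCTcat
Gp9, chr6:87777820-87778069, plus strand: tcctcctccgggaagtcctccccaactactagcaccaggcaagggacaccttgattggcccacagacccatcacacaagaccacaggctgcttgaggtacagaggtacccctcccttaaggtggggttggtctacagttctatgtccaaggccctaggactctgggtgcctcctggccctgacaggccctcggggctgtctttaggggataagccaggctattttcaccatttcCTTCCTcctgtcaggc

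Both strands were searched, for ETS with the letters AGGAAG or with the letters CCGGAA, for GATA with the letters AGATAA or with the letters TGATAA, and for RUNX with the letters TGTGGT or with the letters TGCGGT. An ETS match was present in 4 of the 7 member windows, against 38.2% of all 32851 windows, and every match was AGGAAG. Itga2b held it at 125 and 43 bases before the start, Selp at 64, Gp9 at 16 and Pf4 at 9. None of the 7 held a GATA match, against 16.6% of all windows, and Gp9 alone held a RUNX match, TGTGGT on the minus strand, against 18.6%. The windows with an ETS match belong to genes whose libraries were separate (Itga2b and Selp) and to genes whose libraries overlapped (Pf4 and Gp9). The matches are letters in a window and do not show that a factor binds there.

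The pair of chains of the fibrinogen receptor was higher in all Itpkb-/- libraries. Itga2b (chromosome 11, 102453297 to 102470122, minus strand) reached 266, 267 and 389.5 normalized CPM in the Itpkb-/- libraries numbered 1, 2 and 3, against 129, 145 and 144 in wild-type libraries 1, 2 and 3. The lowest Itpkb-/- library was well above the highest wild-type library, and Itpkb-/- library 3 stood above the others of its genotype. Itpkb-/- cells averaged 307 ± 71.2 and wild-type cells 139 ± 8.89 (SD over 3 libraries), with a log2 difference of 1.12 (SE 0.16).

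Itgb3 (chromosome 11, 104608000 to 104670476, plus strand) was at 437, 393 and 499 normalized CPM in Itpkb-/- cells, against 258, 224 and 222 in wild-type cells. Again no library of one genotype reached the other, with a log2 difference of 0.91 (SE 0.13). Per kilobase of annotated exon, Itga2b was at 0.66, 0.73 and 0.84 times the level of Itgb3 in Itpkb-/- cells, against 0.54, 0.70 and 0.70 times in wild-type cells. These ratios overlapped between the genotypes.

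Of the members of the von Willebrand factor receptor, Gp1bb had separate libraries and Gp9 did not; the difference between them was not tested. Gp1bb (chromosome 16, 18620317 to 18622403, minus strand), which encodes the beta chain of glycoprotein Ib, was at 32.0, 26.4 and 34.9 normalized CPM in Itpkb-/- cells, against 22.1, 19.1 and 23.6 in wild-type cells. The libraries were separate by a small margin, with a log2 difference of 0.50 (SE 0.20) and 89 to 266 reads per library. Gp1bb overlaps the annotated gene Sept5 on the same strand, so reads could have been counted for either.

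Gp9 (chromosome 6, 87778072 to 87779768, plus strand), the glycoprotein IX chain, was at 79.5, 47.4 and 65.4 normalized CPM in Itpkb-/- cells, against 59.2, 69.2 and 67.2 in wild-type cells. The Itpkb-/- libraries held both the highest and the lowest of the 6 values, and the log2 difference was -0.05 (SE 0.19). It was -0.22 without Itpkb-/- library 1 and 0.15 without Itpkb-/- library 2. Per kilobase, Gp1bb was at 0.17, 0.24 and 0.23 times the level of Gp9 in Itpkb-/- cells, against 0.16, 0.12 and 0.15 times in wild-type cells. The ratios did not overlap, by a small margin (0.170 in Itpkb-/- library 1 against 0.158 in wild-type library 1). This ratio contains the Gp1bb difference and is no separate evidence. Gp1ba, the alpha chain that binds von Willebrand factor, is not a member and is given with the tested genes below.

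Selp (chromosome 1, 164115264 to 164150026, plus strand) had the largest difference of the 10. P-selectin is the adhesion receptor that activated platelets and endothelium show to leukocytes. It was at 124, 106 and 173 normalized CPM in Itpkb-/- cells, against 37.8, 33.9 and 34.3 in wild-type cells. Itpkb-/- cells averaged 134 ± 34.8 and wild-type cells 35.3 ± 2.15, with a log2 difference of 1.87 (SE 0.19). The lowest Itpkb-/- library was far above the wild-type group, which varied by 6.08% (coefficient of variation). Selp overlaps 2 annotated non-coding genes on the other strand, and the library kit does not mark strand.

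Treml1 (chromosome 17, 48359916 to 48367176, plus strand), the other alpha granule receptor, was the lowest of the members in normalized CPM. It was at 22.7, 11.5 and 26.3 in Itpkb-/- cells, against 12.7, 16.1 and 14.1 in wild-type cells. Itpkb-/- libraries 1 and 3 lay above all wild-type libraries and Itpkb-/- library 2 below them. The log2 difference was 0.40 (SE 0.30), and it was 0.17 without Itpkb-/- library 3 and 0.74 without Itpkb-/- library 2.

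**Figure D1:**
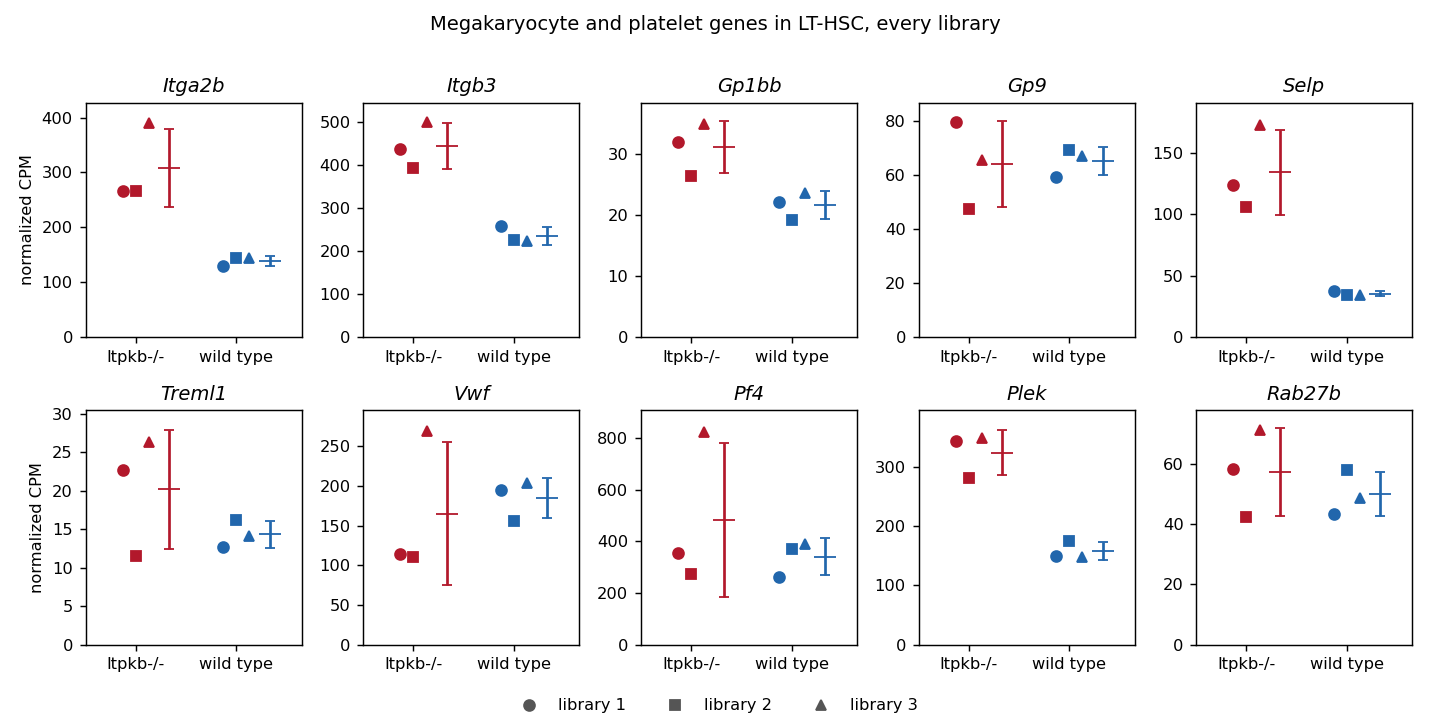
Normalized CPM (vertical axes, from 0) of the 10 genes in each library, with Itpkb-/- in red left of wild type in blue, symbols for library numbers, and the mean with its SD (n = 3) beside the points. Itga2b, Itgb3, Gp1bb, Selp and Plek show no overlap between the genotypes, and Vwf and Pf4 are highest in Itpkb-/- library 3 (269 and 824).

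For both granule cargo genes the libraries of the genotypes overlapped. Vwf (chromosome 6, 125546774 to 125686679, plus strand) was at 114, 111 and 269 normalized CPM in Itpkb-/- cells, against 194, 156 and 203 in wild-type cells. Itpkb-/- libraries 1 and 2 were below every wild-type library and Itpkb-/- library 3 was above every one. The log2 difference was -0.28 (SE 0.28) over all 6 libraries and -0.70 without Itpkb-/- library 3. It was -0.09 without Itpkb-/- library 1 and -0.06 without Itpkb-/- library 2.

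Pf4 (chromosome 5, 90772435 to 90773383, plus strand), a chemokine stored in alpha granules, was at 354, 272 and 824 normalized CPM in Itpkb-/- cells, against 261, 371 and 390.4 in wild-type cells. Itpkb-/- library 3 again held the highest value of the 6, and the other Itpkb-/- libraries lay within the wild-type range. The log2 difference was 0.36 (SE 0.33), and it was -0.11 without Itpkb-/- library 3, 0.68 without Itpkb-/- library 2 and 0.17 without wild-type library 1. The coefficient of variation in Itpkb-/- libraries was 61.6% for Pf4 and 54.8% for Vwf, against 20.6% and 13.6% in wild-type libraries.

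Set against Itga2b in the same library, Vwf was lower in all Itpkb-/- libraries. Its level per kilobase was 0.15, 0.14 and 0.23 times that of Itga2b in Itpkb-/- libraries and 0.51, 0.37 and 0.48 times in wild-type libraries. Pf4 was at 10.1, 7.71 and 16.0 times the level of Itga2b in Itpkb-/- libraries and at 15.3, 19.4 and 20.5 times in wild-type libraries. These last ratios overlapped, with Itpkb-/- library 3 above wild-type library 1. Both ratios contain the Itga2b difference, and are no separate evidence.

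**Figure D2:**
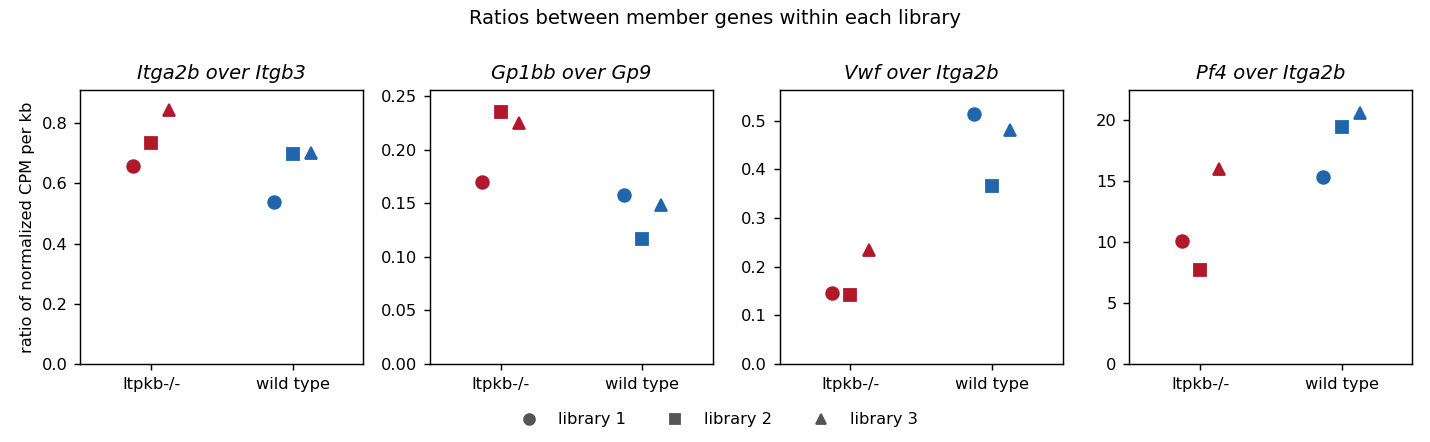
Ratio of normalized CPM per kilobase of exon between 2 members within each library (vertical axes, from 0), Itpkb-/- in red left of wild type in blue. The ratios of Vwf to Itga2b and of Gp1bb to Gp9 do not overlap between the genotypes, and those of Itga2b to Itgb3 and of Pf4 to Itga2b do. Each ratio contains the differences of its members and is no separate evidence.

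Of the intracellular members, Plek (chromosome 11, 16971206 to 17052381, minus strand) was at 343, 281 and 349 normalized CPM in Itpkb-/- cells, against 150.2, 175 and 147 in wild-type cells. The groups were widely separate, with means of 324 ± 37.7 in Itpkb-/- and 158 ± 15.2 in wild-type cells and a log2 difference of 1.03 (SE 0.14). The annotated Plek locus overlaps Cnrip1 on the other strand, which was at 8.13 to 13.3 normalized CPM in Itpkb-/- and at 8.56 to 18.9 in wild-type libraries. Plek is also expressed in other blood cells, so it is less specific to platelets than the receptor genes.

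Rab27b (chromosome 18, 69979131 to 70141605, minus strand) was at 58.4, 42.4 and 71.6 normalized CPM in Itpkb-/- cells, against 43.5, 58.0 and 48.8 in wild-type cells. The groups overlapped, and the log2 difference was 0.17 (SE 0.21). It was 0.00072 without Itpkb-/- library 3, 0.37 without Itpkb-/- library 2, 0.08 without wild-type library 1 and 0.28 without wild-type library 2.

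Selp, Vwf, Itgb3 and Gp9 held different places in the order of the 10 levels in the 2 genotypes. Per kilobase of annotated exon, Itpkb-/- libraries had Pf4 highest at 670 ± 413 normalized CPM per kb, then Itgb3 (75.1 ± 9.00), Gp9 (72.8 ± 18.3), Plek (72.2 ± 8.41) and Itga2b (56.4 ± 13.05). They were followed by Selp (30.4 ± 7.89), Gp1bb (14.9 ± 2.06), Treml1 (14.4 ± 5.51), Vwf (10.2 ± 5.61) and Rab27b (5.38 ± 1.37). The ranges of mean ± SD overlapped among Itgb3, Gp9, Plek and Itga2b, among Gp1bb, Treml1 and Vwf, and between Vwf and Rab27b. These SDs are between libraries and do not compare genes within a library. Within each Itpkb-/- library, Itga2b was below Itgb3, at 0.66, 0.73 and 0.84 times its level. In wild-type libraries the order was Pf4 (473 ± 97.2), Gp9 (74.0 ± 6.02), Itgb3 (39.8 ± 3.45), Plek (35.1 ± 3.39) and Itga2b (25.5 ± 1.63). Vwf (11.5 ± 1.56), Gp1bb (10.4 ± 1.10), Treml1 (10.2 ± 1.24), Selp (8.01 ± 0.49) and Rab27b (4.69 ± 0.69) came after them. Itgb3 and Plek were within their spread in wild type, as were Vwf, Gp1bb and Treml1. Selp was in position 6 in Itpkb-/- and position 9 in wild-type libraries, and Vwf in position 9 in Itpkb-/- and position 6 in wild-type libraries. Vwf was within the spread of Gp1bb and Treml1 between libraries in both genotypes, so these means do not settle its place among them. The order of these genes within each library was not tested. Itgb3 was in position 2 in Itpkb-/- and position 3 in wild-type libraries, and Gp9 the reverse. The length used is the union of all annotated exons, which can exceed the transcript that the cells make.

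Within same-numbered libraries, the 5 separate genes were higher in Itpkb-/- cells in all 3 comparisons. The median log2 difference of the 10 members was 0.63 between the libraries numbered 1, 0.0018 between those numbered 2 and 0.96 between those numbered 3. The median over all tested genes was 0.0098, -0.0021 and -0.0026 in the same 3 comparisons. Between the libraries numbered 2, Gp9, Vwf, Treml1, Pf4 and Rab27b were all lower in the Itpkb-/- library, by log2 differences from -0.54 to -0.44. Between the libraries numbered 3, Gp9 alone was lower (-0.04), and between those numbered 1, Vwf alone (-0.76). No label says what a shared number stands for.

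**Figure D3:**
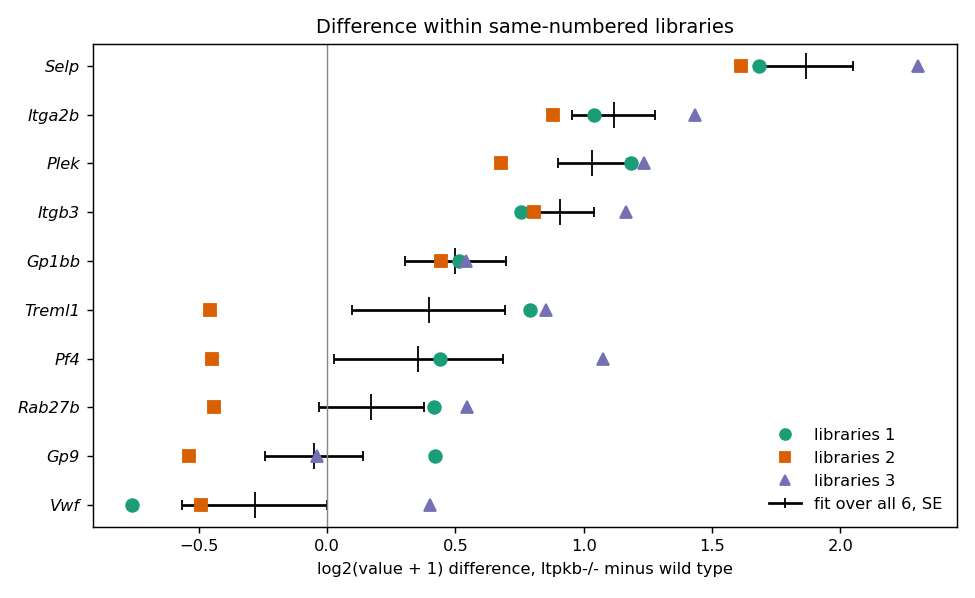
Log2(value + 1) difference, Itpkb-/- minus wild type (horizontal axis), of each member between same-numbered libraries (coloured symbols), with the difference and standard error over all 6 libraries in black. The symbols of Selp, Itga2b, Plek, Itgb3 and Gp1bb are all to the right of 0, and 5 genes have the symbol of the libraries numbered 2 to the left of it.

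Itpkb-/- library 3 was the highest of the 6 libraries in 9 of the 10 members, with Gp9 as the exception. Over all genes tested this library was the highest of the 6 in 12%. Itpkb-/- library 2 was the lowest Itpkb-/- library in 9 members, Itga2b being the exception, and the lowest of all 6 in 4 (Vwf, Gp9, Treml1 and Rab27b), where it was the lowest of the 6 in 20.7% of all genes tested. Among the Itpkb-/- libraries, these 2 were also the lowest and the highest for granulocyte markers, whose part in the members' levels was not tested. The 13 granulocyte genes measured summed to 6822, 18777 and 975 normalized CPM across Itpkb-/- libraries 1, 2 and 3, and to 3898, 2777 and 749 in wild-type libraries. Mpo, the myeloperoxidase gene, had the highest mean of that list through the libraries numbered 2 and was at 588, 8728 and 88.5 in Itpkb-/- libraries and at 263, 817 and 97.7 in wild-type libraries. S100a9, a neutrophil calgranulin, reached 2003, 2759 and 300.3 in Itpkb-/- cells, against 1236, 587 and 175 in wild-type cells. Without both libraries numbered 2, the median log2 difference of the members was 0.79, against 0.45 over all 6 libraries, and it was 0.29 without Itpkb-/- library 3.

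Among markers of mature megakaryocytes and platelets, Ppbp, Tubb1, Clec1b and Gp6 were low, while Mmrn1, Gp1ba and Gp5 were at the level of the members. Ppbp, the platelet basic protein gene, was at 2.49 to 12.3 normalized CPM in Itpkb-/- and at 4.97 to 10.8 in wild-type libraries. Tubb1, the beta tubulin of proplatelets, was at 0.47 to 1.70 in Itpkb-/- and at 0.25 to 2.23 in wild-type libraries, and Gp6, the collagen receptor, was at 0 in all Itpkb-/- libraries and in 2 of 3 wild-type libraries. Of 10 markers, 9 had 3 or more reads in at least 1 library, and their sum was 300.4 to 467 in Itpkb-/- and 517 to 622 in wild-type libraries. Mmrn1, the alpha granule protein multimerin, held 197, 159 and 287 of that sum in Itpkb-/- and 410.3, 366 and 509 in wild-type libraries, and without it the sums were 141 to 205 in Itpkb-/- and 113 to 150.1 in wild-type libraries. The levels of Ppbp, Tubb1 and Thbs1 overlapped between the genotypes. Thbs1 was at 3.49, 6.99 and 9.04 in Itpkb-/- and at 8.70, 17.8 and 11.9 in wild-type libraries. Alox12 was lower in all Itpkb-/- libraries (3.70, 0 and 1.31, against 8.95, 5.23 and 4.65, limma, adjusted p = 0.151). Mmrn1 was also lower in all of them, and Gp1ba, given below, was higher in all. The part of such cells in the members' levels was not tested.

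**Figure D4:**
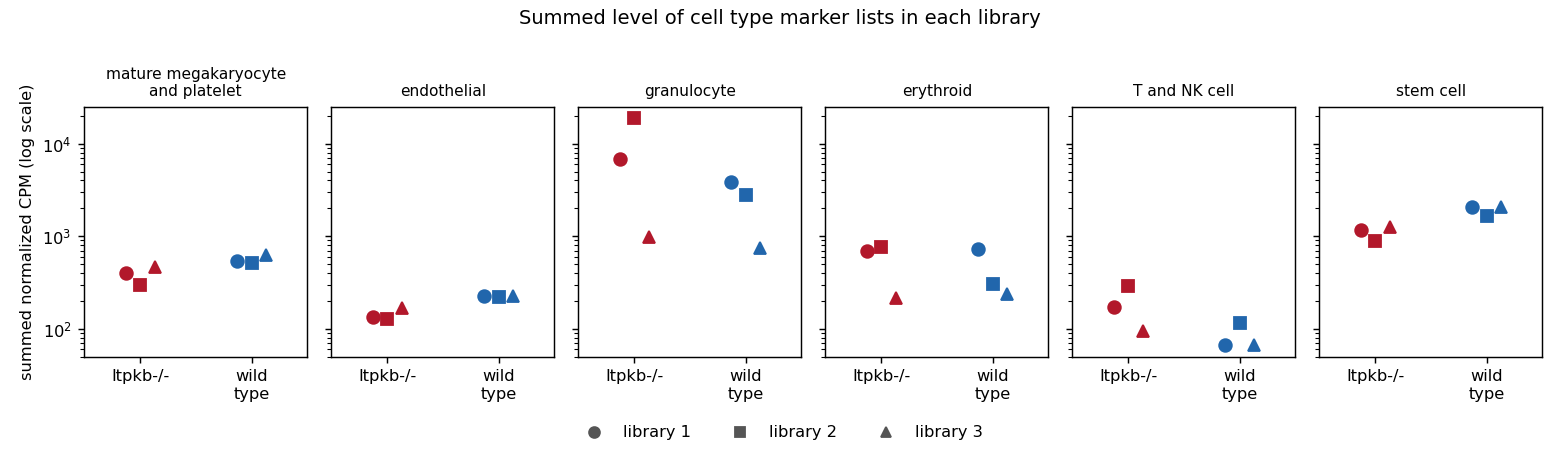
Summed normalized CPM of 6 marker lists (vertical axis, log scale) in each library, Itpkb-/- in red left of wild type in blue. The granulocyte sum is highest in Itpkb-/- library 2 (18777), and the endothelial and stem cell sums are lower in all Itpkb-/- libraries than in all wild-type libraries.

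Selp and Vwf are also endothelial genes. The 13 endothelial markers summed to 126 to 167 normalized CPM in Itpkb-/- and to 222 to 228 in wild-type libraries. The sum came mainly from Tie1, Tek and Emcn, which HSC express too. Cdh5, the endothelial cadherin, was at 0 to 0.52 in Itpkb-/- and at 0.15 to 0.25 in wild-type libraries, and Stab2, Sele and Lyve1 were each below 1. Kdr was at 4.35 to 7.86 in Itpkb-/- and at 5.40 to 8.21 in wild-type libraries. Flt1 was at 2.40, 5.28 and 0.13 in Itpkb-/- and at 0.50, 0 and 0.74 in wild-type libraries. Cldn5, Flt4, Plvap and Ptprb were at 2.98 or less in every library. The other lists summed to 213 to 764 in Itpkb-/- and 236 to 719 in wild-type libraries for 12 erythroid genes. Car1 had the highest mean of these, but in wild-type library 1, which had the sum of 719, Hbb-b1 was higher (152, against 55.0 for Car1). Mast cell and basophil genes summed to 10.2 to 32.8 in Itpkb-/- and 10.2 to 20.1 in wild-type libraries, and B cell genes (highest Cd79b in every library) to 31.8 to 36.8 in Itpkb-/- and 30.6 to 38.8 in wild-type libraries. T and NK cell genes summed to 95.1 to 288 in Itpkb-/- and 66.3 to 117 in wild-type libraries, and without Nkg7, a granule gene of cytotoxic cells, to 8.52 to 9.79 in Itpkb-/- and 4.84 to 11.7 in wild-type libraries. Monocyte genes summed to 23.3 to 76.1 in Itpkb-/- and 17.9 to 27.9 in wild-type libraries, with Vcam1 at 40.7 of the 76.1 in Itpkb-/- library 2. Cpa3 had the highest mean of the mast cell list and Cd68 of the monocyte list, though neither was highest in every library. Tpsb2 of mast cells, Pax5 of B cells and Cd3g of T cells were at 0 in every library. The part of these cells in the members' levels was not tested. The stem cell list was present in every library, with all 10 genes measured, Hlf highest, and sums of 881 to 1261 in Itpkb-/- and 1639 to 2051 in wild-type libraries. Of the genes of the sort gate, Kit was at 615 to 879 in Itpkb-/- and 834 to 911 in wild-type libraries, Ly6a (Sca-1) at 108 to 152 in Itpkb-/- and 133 to 162 in wild-type libraries, and Slamf1 (CD150) at 42.6 to 59.2 in Itpkb-/- and 46.8 to 56.6 in wild-type libraries. Of the markers sorted against, Cd34 was at 204 to 220.2 in Itpkb-/- and 172 to 204 in wild-type libraries. Cd48 was at 33.3, 30.8 and 7.08 in Itpkb-/- cells, against 8.95, 13.6 and 4.65 in wild-type cells. Flt3 (Flk2) was at 25.9, 37.9 and 22.9 in Itpkb-/- and at 7.21, 31.5 and 15.3 in wild-type libraries.

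Beyond the members, 118 other platelet and megakaryocyte genes in 6 lists could be tested, and 13 passed, 8 higher and 5 lower in Itpkb-/- LT-HSC (limma, adjusted p of at most 0.15). That is 11% of them, against 5.50% of all 12008 genes, 2.27% higher and 3.24% lower. The median log2 difference of the 118 was 0.03, against 0.0018 over all genes. With the replicate block, which treats same-numbered libraries as pairs, 25 were higher and 23 lower, where 18.1% of all genes passed, 9.15% higher and 8.97% lower. At an adjusted p of at most 0.05, 6 passed, against 1.52% of all genes. By edgeR on the recovered reads 9 were higher and 6 lower, against 6.02% of all genes. Single libraries decided many calls: 1 gene passed without wild-type library 3, 7 without wild-type library 2 and 20 without Itpkb-/- library 1, and 6 without both libraries numbered 2 and 2 without both numbered 3.

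Among 19 platelet surface receptors, 3 rose, 2 fell and 14 did not pass, and with the replicate block 7 rose and 4 fell. Gp1ba was at 69.3, 60.0 and 72.9 normalized CPM in Itpkb-/- cells and at 37.3, 44.4 and 35.0 in wild-type libraries, a log2 difference of 0.78 (limma, adjusted p = 0.0432). No Itpkb-/- library overlapped a wild-type library, and the call was lost without wild-type library 3 (adjusted p = 0.227). Gp5, the last chain of the complex and chosen after its values were seen, was at 108, 61.1 and 72.0 in Itpkb-/- and at 62.9, 62.8 and 40.0 in wild-type libraries (log2 difference 0.52, limma, adjusted p = 0.322, and 0.0637 with the replicate block). F2rl2, a thrombin receptor, rose by a log2 difference of 0.85 (limma, adjusted p = 0.0506) and P2ry1, a receptor of ADP, by 0.70 on the same scale (limma, adjusted p = 0.137). Jam3, a junctional adhesion molecule of platelets, fell by 1.21 on the log2 scale (limma, adjusted p = 0.0727).

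Among 17 genes of granule cargo, 2 rose and 2 fell, and with the replicate block 4 rose and 5 fell. Mmrn1, which carries factor V in alpha granules, was at 197, 159 and 287 normalized CPM in Itpkb-/- cells and at 410.3, 366 and 509 in wild-type libraries, a log2 difference of -1.02 (limma, adjusted p = 0.0381). Its libraries were separate in the direction opposite to the fibrinogen receptor. Gas6, a ligand of TAM receptors, was at 0.65, 0.78 and 2.75 in Itpkb-/- and at 4.97, 3.59 and 9.68 in wild-type libraries, a log2 difference of -1.58 (limma, adjusted p = 0.119). Serpine2, a thrombin inhibitor, was at 22.9, 39.6 and 58.8 normalized CPM in Itpkb-/- and at 10.7, 12.4 and 14.5 in wild-type libraries, a log2 difference of 1.53 (limma, adjusted p = 0.0389). Sparc, a matrix glycoprotein also made by stromal cells, was at 13.5, 8.86 and 15.3 in Itpkb-/- and at 4.23, 0.15 and 0.37 in wild-type libraries (log2 difference 2.72, limma, adjusted p = 0.0338, and 0.121 by edgeR). Its values in wild-type libraries 2 and 3 were below the level of 3 reads, so the size of this difference is uncertain.

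In the list of granule formation and release, 1 of 24 genes passed, and with the replicate block 3 rose and 3 fell. Slc35d3, which is needed for dense granules of mouse platelets, was at 21.8, 13.2 and 23.9 normalized CPM in Itpkb-/- cells, against 2.49, 5.98 and 4.47 in wild-type libraries. The libraries were far apart, with a log2 difference of 1.97 (limma, adjusted p = 0.0224), and it was the only one of the 13 genes that passed whichever single library was left out (adjusted p up to 0.113). Rab27a, the paralogue of the member Rab27b, did not pass.

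In the signalling list 2 of 25 genes rose, and with the replicate block 6 rose and 3 fell. Rap1b, a small GTPase in the activation of the fibrinogen receptor, was at 819, 629 and 1001 normalized CPM in Itpkb-/- cells, against 593, 518 and 529 in wild-type cells (log2 difference 0.55, limma, adjusted p = 0.133). Plcg2, a phospholipase that makes inositol trisphosphate, was at 227, 242 and 261 in Itpkb-/- and at 168, 183 and 184 in wild-type libraries (log2 difference 0.45, limma, adjusted p = 0.105). Neither passed in more than 1 of the 6 fits without a library. None of 13 genes of the proplatelet cytoskeleton passed by limma, 3 had an unadjusted p under 0.05 and 1 passed by edgeR. With the replicate block 4 of the 13 rose and none fell. Those with the smallest p were Tpm4, a tropomyosin, with a log2 difference of 0.71 (limma, adjusted p = 0.163, and 0.0701 with the block), and Flna, filamin A, with 0.38 (limma, adjusted p = 0.203, and 0.0173 with the block).

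Of 20 megakaryocyte transcription factors 1 passed, and it fell. Cbfa2t3, a corepressor that works with Tal1 and Gata1, was at 294, 284 and 289 normalized CPM in Itpkb-/- cells, against 406, 384 and 463 in wild-type cells (log2 difference -0.52, limma, adjusted p = 0.0595). Of the 20 factors, 14 had negative log2 differences and the median was -0.11. With the replicate block 1 rose and 8 fell.

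**Figure D5:**
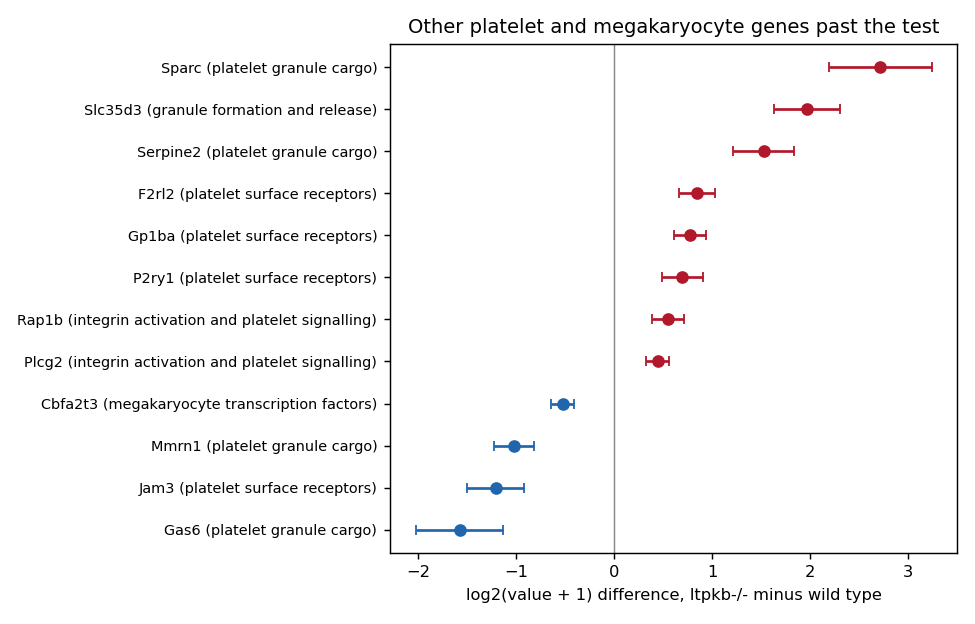
Log2(value + 1) difference with its standard error, Itpkb-/- minus wild type (horizontal axis), of 12 of the other platelet and megakaryocyte genes that passed the test, with their list in brackets. The 8 genes in red were higher and the 4 in blue, Mmrn1 among them, lower in Itpkb-/- LT-HSC.

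The genes whose log2 levels over the 6 libraries were most like 3 of the members were taken from 8996 genes with a mean of at least 10 normalized CPM. For Selp they were Vldlr, a lipoprotein receptor, Clca1 and Zyx, a focal adhesion protein, with Pearson correlations of 0.996, 0.993 and 0.992. Vldlr was at 222, 190.2 and 266 normalized CPM in Itpkb-/- and at 66.4, 64.4 and 57.1 in wild-type libraries. For Itga2b they were the transcription factor gene Runx3, the MHC class II gene H2-Eb1 and Gtpbp4, a GTPase of ribosome assembly (0.997, 0.996 and 0.995). Runx3 was at 115, 116 and 143 in Itpkb-/- and at 79.3, 85.8 and 88.1 in wild-type libraries. For Vwf they were Trim12c, Ralgps2 and Adamtsl5 (0.981, 0.975 and 0.974), whose levels were highest in Itpkb-/- library 3, as for Vwf. These correlations are a description over 6 libraries, and for Selp and Itga2b they contain the difference between the genotypes.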

How the data were processed

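The deposited values are a signal per gene, counts that the authors scaled by library, called normalized CPM here. CASAVA 1.8.2, cutadapt, TopHat2 2.0.8b, Partek, edgeR and build mm10 are named in the submitters' processing notes, and the series design text names another TopHat version. Per the labels' protocols, the NuGEN Ovation kit amplified the RNA. Dividing by the smallest step of each library gave whole reads for 100% of values (tolerance 0.01), in total 4777870, 6559673 and 7470329 in Itpkb-/- and 4024203, 6597505 and 5241831 in wild-type libraries. A level of 3 reads, the detection floor for counting error only, was worth 0.39 to 0.75 normalized CPM.

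limma 3.58.1 (R 4.3.3) was fitted with a mean-variance trend to log2(value + 1) of the 12008 genes with at least 1 normalized CPM in at least 3 libraries. Benjamini-Hochberg adjustment ran over all of them, and 661 genes passed at 0.15, the limit that the series design text gives. Log2 differences are on this scale, which understates those of low genes. The members and lists were chosen with earlier results of these data known, so members have no p-value and list counts are no independent evidence. On the recovered reads, the edgeR 4.0.16 quasi-likelihood test passed 692 of 11486 genes, and DESeq2 1.42.0 was a further alternative. The code was tested on simulated data.

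Named besides the members were the genes of each list that passed (or, with none, the 2 with the smallest p), the 3 genes most like Selp, Itga2b and Vwf, and the gene of the highest mean in each marker list. S100a9, Hbb-b1, Vcam1, Gp5, Rab27a and other single marker genes were added after their values were seen. Of the list genes, 1 that passed is counted but not reported here. Of the list symbols, 2 were matched through older names (G6b and Diap1). Positions are those of GENCODE M21 on mm10. Libraries with the same number deviated together from their genotype means (correlation 0.296, 0.268 and 0.284, against -0.048 or below for other numbers). Such deviations cancel out within a genotype, so positive values for the same number push the others down. The contrast between them therefore overstates the evidence for pairs. The numbers were taken as pairs in an alternative fit, although no label says what they stand for. No library repeated another of its genotype (chi-square over degrees of freedom 5.93 to 25.2).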

Additional observations from a re-analysis of the deposited data

How the results depend on the processing

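The number of members with separate libraries was 5 over all 6 libraries and 5 to 7 under the 16 alternatives. Only the DESeq2 size factors could have lowered this number, because leaving out libraries cannot undo a separation. The remaining settings counted it on the same values. The median log2 difference of the members was 0.29 to 0.79, the highest without both libraries numbered 2. The sign of the difference held in all 16 for Selp, Itga2b, Itgb3, Plek, Gp1bb, Treml1 and Vwf, and in 14 for Pf4, 14 for Gp9 and 15 for Rab27b. The replicate block and the other filters cannot change a difference. For Treml1 and Vwf, whose genotypes overlapped, the differences ran from 0.17 to 0.82 and from -0.70 to -0.04. With the replicate block, 2176 genes passed over the whole table and 48 of the other platelet and megakaryocyte genes, against 661 and 13 without it. Without 1 library the counts ran from 74 to 837 and from 1 to 20. They were 139 and 6 without both libraries numbered 2, 113 and 2 without both numbered 3, and 182 and 6 at an adjusted p of at most 0.05. DESeq2 on the recovered reads passed 896 genes over the whole table and 21 of the other platelet and megakaryocyte genes. Leaving out libraries leaves fewer samples, and the causes of the other changes were not tested. Other pseudocounts (0.25 and 4), DESeq2 size factors, edgeR and other filters kept both counts within 1.5 times. Depth limits Treml1 most among the members, with 51 reads in wild-type library 1.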
